A study of Mus musculus with 96 samples.

Results

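Hippocampal microglia of 8 old and 4 young control mice, labelled with the 48 h time, are compared here. These 12 libraries, of 96 in the series, are those whose labels give control treatment, the 48 h time and the hippocampus, and they were matched to the count table by library name. All mice were wild type. The old mice were 20 to 22 months of age and the young mice 3 to 5 months. Each library was made by Smart-seq2, a full-length protocol for little RNA, from 1000 cells sorted as CD11b+ Fcrls+ Ly6C-, a gate for microglia that leaves out monocytes. The sort numbers in the library names differ between the 12 hippocampi, so each comes from its own animal. The sources used here do not give what the control animals underwent, their sex or the strand used in counting. Other groups are set beside these for reference: 9 old and 4 young mice 48 h after abdominal surgery (hippocampus), 8 old and 4 young controls at 6 h (hippocampus), and the hemispheres of the same 8 old and 4 young control animals at 48 h.

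Microglia are the resident macrophages of the brain. Under resting conditions they express a set of sensor genes such as P2ry12 (a purine receptor), Tmem119 and Cx3cr1 (the fractalkine receptor), held in place by TGF-beta. In aged and diseased mouse brain they are known to raise genes of the disease-associated programme (Apoe, Clec7a, Cst7, Axl), of antigen presentation, of the interferon response and of inflammatory signalling, in which NF-kB drives chemokine and Tnf transcription.

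The 12 libraries carried the microglial markers at levels that overlapped between the ages. Levels are given as CPM, counts per 1e6 of a library's total after TMM scaling, and differences as log2 fold changes of old over young with their standard error (SE). The 31 homeostatic genes summed to 44293 to 80944 in old and 59179 to 79864 in young libraries, per 1e6 counts outside the 13 largest gene models. Fcrls, the gene of the sorting antigen, averaged 442 ± 71.7 CPM in old and 393.7 ± 108.8 CPM in young libraries (SD, n = 8 and 4). The log2 fold change was -0.03 ± 0.17 for P2ry12, 0.18 ± 0.15 for Tmem119 and 0.09 ± 0.18 for Cx3cr1. The libraries held 2281760 to 3130602 counts in old and 2278655 to 2875388 in young mice, of which 13 repeat-like or ribosomal models took 70.1% to 78.1% and 71.3% to 78.5%. Outside them 544437 to 765024 counts were left in old and 498339 to 824788 in young libraries, so many genes named here rest on few counts. None of 6 library measures (such as total counts, genes detected and the mitochondrial share) passed an exact two-sided permutation test over the 12 libraries, with an adjusted p of 0.931 for each, where the smallest p this design allows is 0.00202. Of the other cell types' markers, the 8 genes of choroid plexus and ependyma summed to 20.1 to 1916 (median 217) in old and 1226 to 5378 (median 1700) in young libraries. Ttr, the transthyretin gene of the choroid plexus, made up much of this, at 0 to 365 CPM in old and 231 to 1090 CPM in young libraries. The scales differ, since the sums are per 1e6 counts outside the 13 largest models and CPM is per 1e6 of a library's total. The sums overlapped between the ages in every marker list, and the neutrophil genes S100a8, S100a9, Camp and Retnlg were at 0 in all 12 libraries. In libraries of pooled cells, fewer cells of a type and less RNA per cell cannot be told apart.

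Few single genes differed between the ages past the adjusted threshold. Of 11985 genes tested with edgeR's quasi-likelihood test, 10 passed a Benjamini-Hochberg (BH) adjusted p of 0.05 (0.0834%), 3 of them higher in old (0.0250%) and 7 lower (0.0584%). The 3 that rose were Upk1b, Lag3 and Gm27008. The 7 that fell were Gm42427, Gm42031, Rgs7bp, Ankrd26, Dynlt1b, Miga1 and Gclm. In 8 of the 10 the ages did not overlap, and over all genes tested that held for 74 (0.617%). The test shares its estimate of the spread with the 13 surgery libraries of the same table. With the 12 control libraries fitted alone, edgeR called 0 of 10638 genes and 718 had an unadjusted (nominal) p below 0.05, against 948 of 11985 (7.91%) in the fit with surgery libraries. The genes kept by the filter, the scaling and the estimate of the spread all differ between these fits, and which of them the calls depend on was not tested. DESeq2 called 22 genes on all 25 libraries, 9 of them among the 10, and edgeR called 23 without young replicate 3, all 10 among them. Sort numbers of 4 old animals lie above those of all young ones; without these 4, 4 genes were called, Gm42427, Gm42031 and Gm27008 among them.

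**Figure D1:**
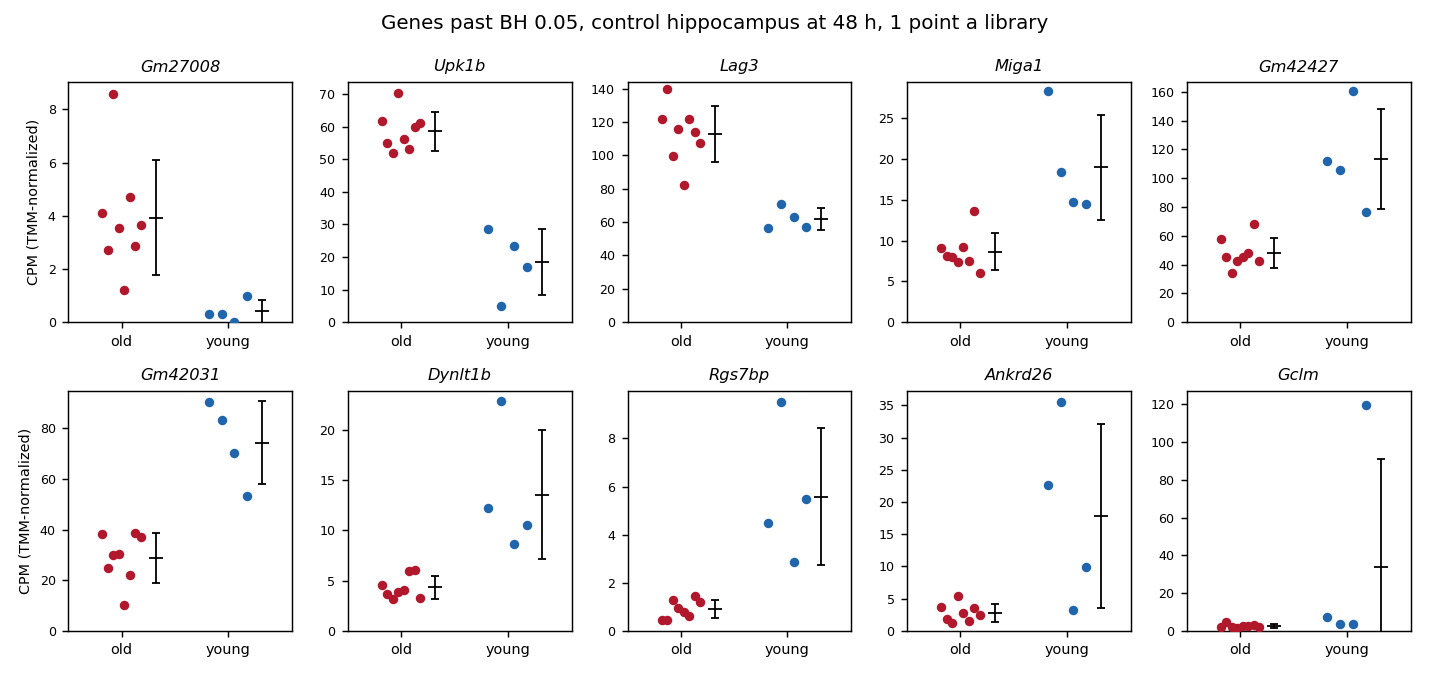
Level in CPM (y axis, from 0) of the 10 called genes, 1 point a library, with the 8 old libraries left of the 4 young ones in each panel and the mean ± SD beside the points. The old libraries of Upk1b sit between 51.8 and 70.3 CPM, all above the young ones at 5.07 to 28.6 CPM, and the single high point of Gclm is young control replicate 4 at 119.8 CPM.

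A pair of the genes that rose encode membrane proteins. Upk1b (ENSMUSG00000049436, chr16:38773184-38800328, minus strand) encodes uroplakin 1B, a tetraspanin first known from the bladder lining. In the 8 old libraries it stood at 61.5, 54.8, 51.8, 70.3, 56.2, 52.99, 59.7 and 61.1 CPM, against 28.6, 5.07, 23.4 and 17.0 CPM in the 4 young ones. The old values were close together and all above the young ones, of which the lowest, replicate 2, was far under the other 3. The log2 fold change was 1.66 ± 0.28 with an edgeR adjusted p of 0.0043, from 121 to 218 counts per library in old and 16 to 96 in young mice. Lag3 (ENSMUSG00000030124, chr6:124904361-124911705, minus strand) encodes an inhibitory receptor best known from T cells, where it binds MHC class II. It had a lowest level of 82.3, a median of 115 and a highest of 140 CPM in old libraries, against 56.5, 70.7, 63.1 and 56.9 CPM in young ones. The ages did not overlap, and the log2 fold change was 0.87 ± 0.17 (edgeR adjusted p 0.026). The call was lost in 7 of 12 fits that left out 1 library, with the fold change between 0.75 and 0.94 over all alternatives. The T and NK cell list summed to 23.9 to 45.4 in old and 19.6 to 62.2 in young libraries, and Cd4, a T cell gene 16139 bases from Lag3, was under the count filter.

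Gm27008 (ENSMUSG00000098108, chr3:106934382-107093894, minus strand) is an antisense model that covers the potassium channel gene Kcna3. It had 3 to 27 counts per old library and 0 to 2 per young library, or 1.20 to 8.58 CPM in old and 0 to 0.998 CPM in young mice. The fitted log2 fold change of 3.27 ± 0.54 (edgeR adjusted p 0.0040) depends on the prior count at such low values and sets no size. Kcna3 was under the count filter, and without strand the reads of both cannot be told apart.

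A pair of models outside the annotation's protein-coding class fell, Gm42427 and Gm42031. Gm42427 (ENSMUSG00000105263, chr5:44137980-44143271, plus strand), a model whose status the annotation leaves to be shown by experiment, had 34.3 to 68.3 CPM (median 45.1) in old libraries, against 112, 105.6, 160 and 76.4 CPM in young ones. Every old library was below every young one, and the log2 fold change was -1.24 ± 0.18 (edgeR adjusted p 0.0017). Its neighbours on the same strand, Gm42428 (1058 bases away) and Gm42429 (3029 bases away), had log2 fold changes of -0.88 ± 0.84 and -2.89 ± 1.13 and were not called. Gm42031 (ENSMUSG00000110386, chr8:85125872-85132289, minus strand), a long noncoding RNA, had 10.03 to 38.6 CPM (median 30.1) in old libraries, against 90.5, 83.4, 70.1 and 53.4 CPM in young ones. The ages were again apart, with a log2 fold change of -1.37 ± 0.23 (edgeR adjusted p 0.0040). Zfp791, 2776 bases away on the same strand, stood at 0.16 ± 0.29. The calls of Gm42427 and Gm42031 held in each of the 12 fits without 1 library.

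Dynlt1b (ENSMUSG00000096255, chr17:6430112-6436296, plus strand) encodes a light chain of dynein, the motor that carries cargo toward the minus end of microtubules. It lies in a stretch of mouse chromosome 17 with several copies of the gene, and its coding sequence differs by 1 base of 339 from those of Dynlt1a, Dynlt1c and Dynlt1f, which are identical to each other. The first 60 coding bases are shown because they hold that base, in capitals, at position 21 counted from the A of the start codon (C21A, Dynlt1a base first; GRCm38 sequence, GENCODE M21 models).
Dynlt1b, chr17:6430212-6435964, plus strand: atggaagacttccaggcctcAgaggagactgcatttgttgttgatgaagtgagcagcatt
Dynlt1a, chr17:6310876-6317400, minus strand: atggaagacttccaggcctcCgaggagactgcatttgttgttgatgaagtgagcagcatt
Reads from the coding part that do not reach this base match all 4 copies, so how the counts were shared among them is uncertain. With that limit, Dynlt1b had 3.18 to 6.08 CPM (median 3.94) in old libraries, against 12.2, 22.8, 8.60 and 10.5 CPM in young ones. The ages did not overlap, and the log2 fold change was -1.65 ± 0.27 (edgeR adjusted p 0.0040). The other copies were not called, at -0.57 ± 0.32 for Dynlt1a, 0.63 ± 0.41 for Dynlt1c and -0.01 ± 0.42 for Dynlt1f. Summed over the 4 copies, the level was 23.2 to 36.5 CPM (median 30.1) in old libraries and 48.2, 49.5, 44.3 and 24.5 CPM in young ones. The sums overlapped through young replicate 4, the library with the fewest counts. The long noncoding RNA model Gm26848, which spans Dynlt1b on the same strand, stood at -0.19 ± 0.33 and was not called. The pseudogene Tmem181b-ps, 2227 bases from Dynlt1b on the other strand, stood at -0.86 ± 0.22 and the related gene Tmem181a at -0.84 ± 0.25, neither of them called.

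The remaining genes that fell were at low levels. Rgs7bp (ENSMUSG00000021719, chr13:104945904-105054930, minus strand) encodes a protein that anchors R7-type regulators of G protein signalling at the membrane. It had 1 to 4 counts per old library and 7 to 30 per young library, which is 0.453 to 1.43 CPM in old libraries, against 4.46, 9.51, 2.87 and 5.49 CPM in young ones. No old library reached a young one, and the log2 fold change was -2.56 ± 0.40 (edgeR adjusted p 0.0035). Ankrd26 (ENSMUSG00000007827, chr6:118501308-118562226, minus strand) encodes an ankyrin repeat protein of the distal appendages of centrioles. It had 1.27 to 5.48 CPM (median 2.62) in old libraries, against 22.6, 35.5, 3.28 and 9.98 CPM in young ones. Young replicate 3 lay within the old range, and the log2 fold change was -2.66 ± 0.43 (edgeR adjusted p 0.0040). Miga1 (ENSMUSG00000054942, chr3:152273849-152340407, minus strand), for mitoguardin 1 of the outer mitochondrial membrane, had 6.07 to 13.6 CPM (median 8.05) in old libraries, against 28.3, 18.4, 14.8 and 14.5 CPM in young ones. The highest old library came close to the lowest young one without crossing it. The log2 fold change was -1.14 ± 0.23 (edgeR adjusted p 0.032), and the call was lost in 7 of 12 fits without 1 library. The calls of Rgs7bp, Ankrd26 and Dynlt1b held in 11 of those 12 and were lost without young replicate 2, at adjusted p of 0.052, 0.069 and 0.091.

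Gclm (ENSMUSG00000028124, chr3:122245557-122270732, plus strand), the modifier subunit of the enzyme that makes the glutathione precursor, was decided by 1 library. It had 1.29 to 4.53 CPM (median 2.54) in old libraries, against 7.14, 3.81, 3.69 and 119.8 CPM in young ones. With all libraries the log2 fold change was -3.65 ± 0.74 (edgeR adjusted p 0.041), and without young replicate 4 it was -0.92 with an adjusted p of 0.857. In the hemispheres of the young controls Gclm was at 2.79, 34.1, 121.7 and 2.58 CPM, with replicate 3 high and replicate 4 low, so the high value was in another animal there.

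The same ages were compared in other mice of the series. After surgery at 48 h, 10 genes passed the adjusted p of 0.05 (0.0834%), 4 higher in old (0.0334%) and 6 lower (0.0501%). Among controls at 6 h 8 genes did (0.0584% of 13703 tested), 5 higher (0.0365%) and 3 lower (0.0219%). Of the 10 genes called in 48 h controls, 9 had the same sign after surgery, 8 of them at a nominal p below 0.05, where the background is 11.3% of genes in either direction. Gm42427, Gm42031, Rgs7bp and Upk1b were called in both, which is 40% of each list. These comparisons share no library, though they share the estimate of the spread. At 6 h, 6 of the 10 had the same sign, 4 of them at a nominal p below 0.05 (background 8.36%), and 1, Upk1b, was called.

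**Figure D2:**
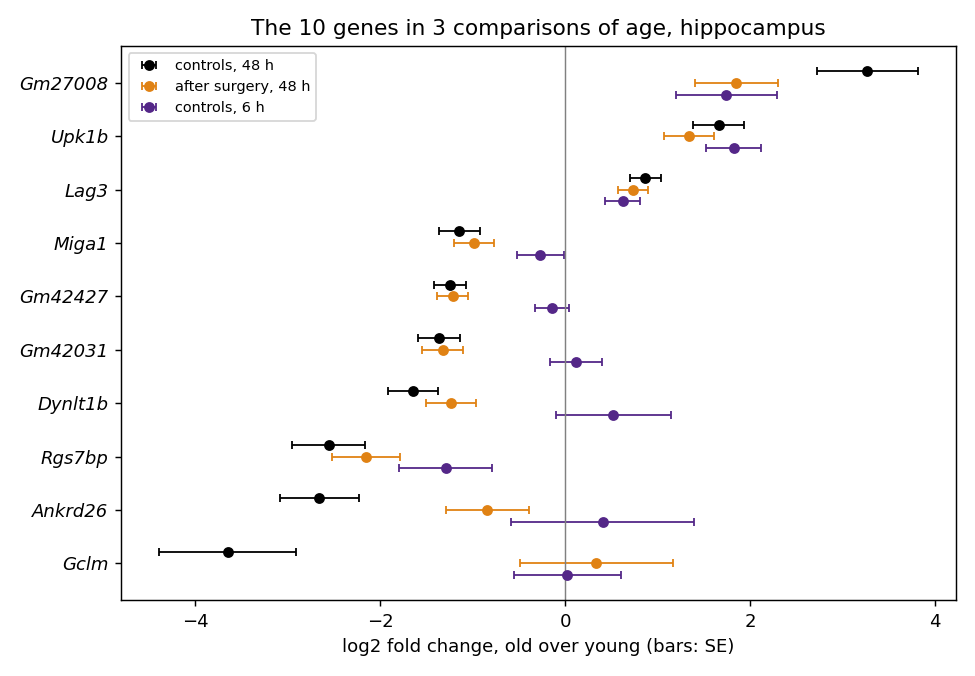
Log2 fold change of old over young (x axis, bars are the SE) for the 10 genes called in 48 h controls, in 3 comparisons: 48 h controls, 48 h after surgery and 6 h controls, all in hippocampus. Upk1b lies at 1.66, 1.34 and 1.82 in these, whereas Gm42427 and Gm42031 lie near 0 at 6 h, at -0.14 and 0.12.

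Upk1b was high in old and low in young hippocampus in each setting. Old libraries had 35.8 to 75.4 CPM after surgery, against 17.4 to 25.03 CPM in young ones (log2 fold change 1.34 ± 0.27, edgeR adjusted p 0.042). At 6 h old controls had 36.7 to 67.7 CPM and young controls 10.99 to 21.1 CPM (1.82 ± 0.30, edgeR adjusted p 0.0099). In young replicates 1 and 4 of 6 h, low values do not run 1, 2, 3. Without these libraries 0 genes were called at 6 h, so the call of Upk1b there was lost too. In the hemisphere of the 48 h controls the ages overlapped, with 21.5 to 50.2 CPM in old and 16.4 to 24.9 CPM in young libraries. The age difference in hippocampus minus that in hemisphere, tested within animals, was 1.03 on the log2 scale with an unadjusted p of 0.0135 and an adjusted p of 0.882, and is not called. Lag3 and Gm27008 had positive log2 fold changes in both other comparisons without a call, Lag3 at 0.73 ± 0.16 after surgery and 0.62 ± 0.19 at 6 h, and Gm27008 at 1.85 ± 0.45 and 1.75 ± 0.55. Rgs7bp had 0.33 to 2.69 CPM in old and 3.57 to 6.95 CPM in young libraries after surgery (-2.15 ± 0.37, edgeR adjusted p 0.0081), and -1.29 ± 0.50 at 6 h, not called.

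Several genes that were lower in old mice at 48 h had no such difference at 6 h, where the young controls stood as low as the old. Gm42427 had 46.5 to 70.2 CPM in old and 45.2 to 73.0 CPM in young controls at 6 h, a nearly complete overlap. In the young mice of 48 h it was at 91.8 to 142 CPM after surgery and 105.98 to 167 CPM in control hemispheres, both above all old libraries of those settings (41.2 to 63.1 and 40.4 to 51.95 CPM). Gm42031 followed the same order, with 22.9 to 51.8 CPM in old and 24.1 to 60.5 CPM in young controls at 6 h, against 25.3 to 44.6 CPM in old and 72.7 to 97.6 CPM in young mice at 48 h after surgery. Dynlt1b had 1.73 to 10.5 CPM in old and 0 to 7.60 CPM in young controls at 6 h. For Miga1 these were 8.65 to 13.6 CPM in old and 11.2 to 14.8 CPM in young controls. Levels at 6 h and in the hemisphere were scaled within their own tables.

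The test of the difference between the times called none of these. The age difference at 48 h minus that at 6 h was -1.12 ± 0.27 for Gm42427 (unadjusted p 0.000335, edgeR adjusted p 0.364), -1.50 ± 0.41 for Gm42031 (adjusted 0.501), -2.19 ± 0.68 for Dynlt1b (adjusted 0.575) and -0.90 ± 0.32 for Miga1 (adjusted 0.603). Tmem181b-ps, named after its values were seen, had 7.99 to 19.5 CPM in old and 5.43 to 8.53 CPM in young controls at 6 h, the opposite order to 48 h, where it was 7.95 to 19.9 CPM in old and 16.7 to 30.7 CPM in young controls. Its difference between the times was -1.96 ± 0.38 (unadjusted p 2e-05, edgeR adjusted p 0.213). Across 13044 genes edgeR called 0 for this difference, 847 had a nominal p below 0.05 (6.49%), and DESeq2 called 10. For the difference between regions edgeR called 0 of 12314, with 668 at a nominal p below 0.05 (5.42%), and DESeq2 called 7. Of the 4 young controls at 6 h, replicates 1 and 4 have low values that do not run 1, 2, 3 (values of 1 made up 4.11% and 9.93% of those from 1 to 3, against 51.2% to 65.2% in the 12 libraries of 48 h controls). In the other 2, Gm42427 was at 45.2 and 70.2 CPM and Gm42031 at 24.1 and 60.5 CPM.

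**Figure D3:**
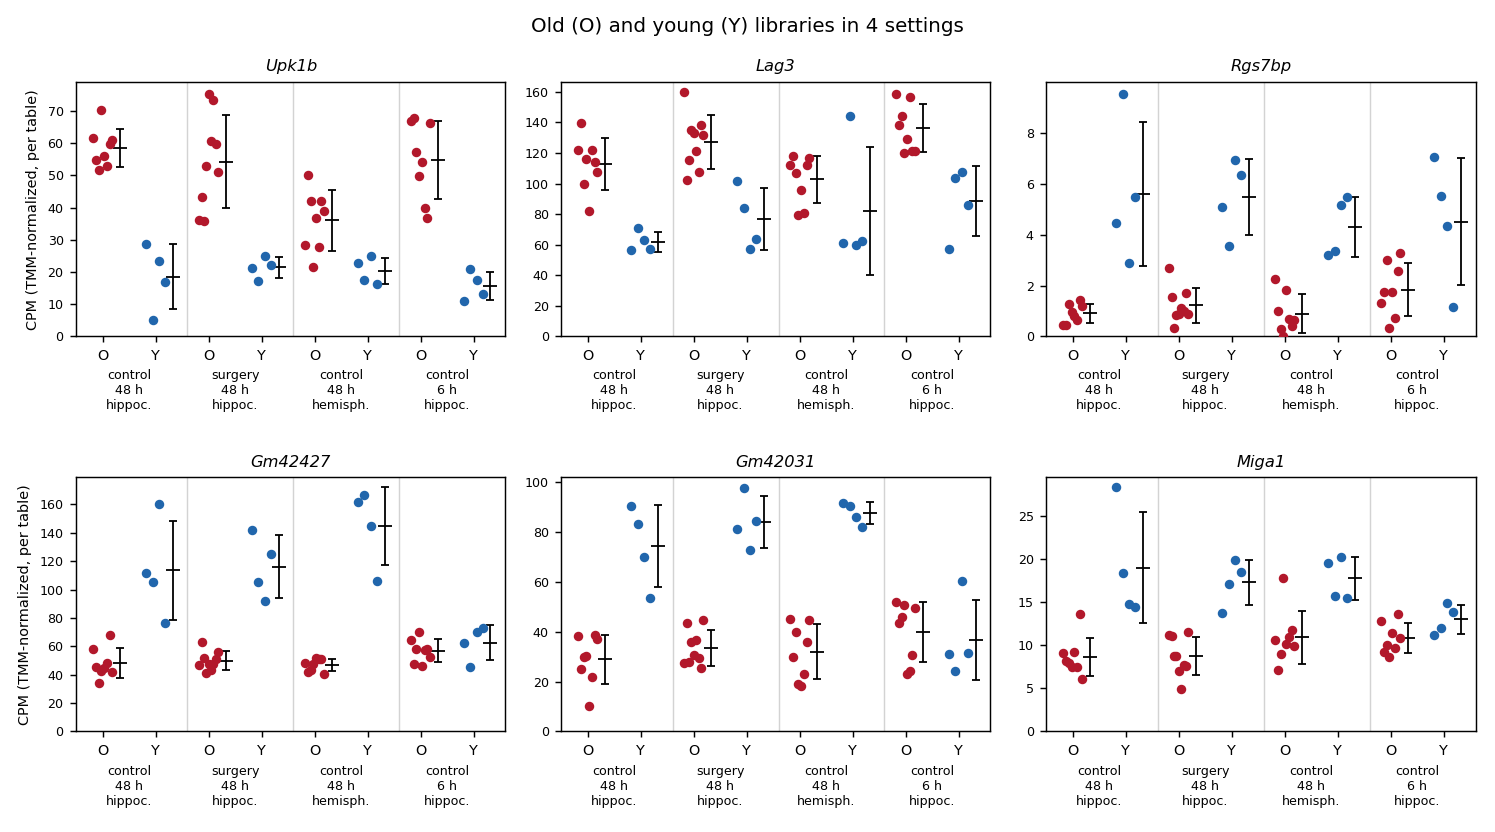
CPM (y axis, from 0, scaled within each table) of Upk1b, Lag3, Rgs7bp, Gm42427, Gm42031 and Miga1 in old (O) and young (Y) libraries of 4 settings: 48 h control hippocampus, 48 h surgery hippocampus, 48 h control hemisphere and 6 h control hippocampus. Gm42427 is at 45.2 to 73.0 CPM in young controls of 6 h and at 76.4 CPM or more in each young library of 48 h.

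Several genes called at 6 h or after surgery missed the threshold in 48 h controls. Without young replicates 1 and 4 of 6 h, 0 genes were called at 6 h. Dag1, for the matrix receptor dystroglycan, was called lower at 6 h (-1.59 ± 0.29) and had the opposite sign in 48 h controls (0.79 ± 0.33, edgeR adjusted p 0.547). Upf3b, a factor of nonsense-mediated decay, was called at 6 h (-1.41 ± 0.27) and Harbi1 after surgery (-1.35 ± 0.26), and they stood at -0.44 ± 0.38 and -0.38 ± 0.29 in 48 h controls. Tgfb2, called lower at 6 h, was under the count filter at 48 h. Ildr2, an immunoglobulin-like receptor gene, had 4.56 to 7.63 CPM in old and 1.79, 4.44, 1.23 and 0.499 CPM in young 48 h controls, without overlap (log2 fold change 1.57 ± 0.35, edgeR adjusted p 0.102; 2.68 ± 0.36 at 6 h). Naalad2, a glutamate carboxypeptidase gene related to the one that cleaves N-acetylaspartylglutamate, was at 1.42 ± 0.40 (adjusted p 0.222), against 2.29 ± 0.38 at 6 h and 2.04 ± 0.41 after surgery, called in both. Lyz2 (lysozyme) and Lsp1 (a leukocyte actin-binding protein) were at 0.39 ± 0.26 and 0.19 ± 0.18 in 48 h controls, where Lyz2 was called at 6 h (1.27 ± 0.24) and Lsp1 after surgery (1.21 ± 0.19). Cd9, a tetraspanin gene, was at 0.34 ± 0.14 in 48 h controls and called after surgery (0.80 ± 0.15). Pdcd1, for the checkpoint receptor PD-1, came closest to the threshold of those not called, with 1.82 to 4.70 CPM in old and 0.298, 0.317, 0.820 and 0 CPM in young controls. Its ages did not overlap, and the log2 fold change was 3.01 ± 0.63 (edgeR adjusted p 0.0576). Gm35279, a noncoding model called after surgery (-1.99 ± 0.32), was at -1.41 ± 0.33 in 48 h controls (adjusted p 0.132), also without overlap.

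Gene lists were described by how many members had a nominal p below 0.05. Of all genes tested in 48 h controls, 4.06% were higher in old by that measure and 3.85% lower. These shares were 4.55% and 3.81% at 6 h, and 5.15% and 6.13% after surgery. Among cytokines and chemokines in 48 h controls, 7 of 18 tested members were higher and 1 lower by that measure. A positive fold change was seen in 16 of 18, and the median was 0.51, against 0.00 over all genes. None was called by edgeR. Tnf, the tumour necrosis factor gene, had 17.8, 28.5, 27.3, 18.4, 16.5, 15.7, 45.04 and 28.7 CPM in old libraries, against 8.04, 9.20, 11.1 and 3.00 CPM in young ones. Every old library lay above the young ones, and the log2 fold change was 1.63 ± 0.45 (edgeR adjusted p 0.213). Ccl2, a monocyte chemoattractant, had 21.3 to 59.7 CPM (median 46.4) in old libraries, against 12.5, 22.8, 18.03 and 10.98 CPM in young ones. The ages overlapped through young replicate 2, and the log2 fold change was 1.35 ± 0.35 (edgeR adjusted p 0.209). Ccl3, a macrophage chemokine, had 57.1 to 140 CPM in old libraries, against 34.2, 58.4, 30.3 and 31.95 CPM in young ones. Young replicate 2 again reached the old range (1.06 ± 0.35, edgeR adjusted p 0.390), and its neighbour Ccl4 stood at 0.83 ± 0.46. Cxcl16, a membrane-bound chemokine, was at 0.89 ± 0.21 (edgeR adjusted p 0.143) and was called by DESeq2 (adjusted p 0.0273). Tnfsf13b, the B cell factor BAFF, was at 1.20 ± 0.34 (edgeR adjusted p 0.222). Il1a was at 0.89 ± 0.42. Il1b was under the filter, with 0 to 4.05 CPM in old and 0 to 0.820 CPM in young libraries. Leaving out 1 library at a time, 5 to 11 members of this list were higher by that measure (11 without young replicate 3). Without that replicate the count rose over all genes too, to 1620 of 12612 in either direction, against 948 of 11985 with all libraries. At 6 h the counts were 5 higher and 0 lower of 19 (median 0.30), with Tnf at 0.94 and Ccl3 at -0.21, and after surgery 5 and 1 of 18 (median 0.41).

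NF-kB and Toll-like receptor genes followed, with 7 of 28 higher and 0 lower at a nominal p below 0.05 (median 0.30, 23 positive). Tlr2, a receptor for bacterial lipoproteins, had 22.6 to 32.4 CPM in old libraries, against 6.55, 16.5, 27.9 and 7.99 CPM in young ones. Young replicate 3 fell within the old range (log2 fold change 0.97 ± 0.28, edgeR adjusted p 0.251). Nfkb2, an NF-kB subunit gene, was at 1.02 ± 0.33, Myd88, the adaptor of Toll-like receptors, at 0.58 ± 0.20, Birc3 at 0.86 ± 0.29 and Relb at 0.77 ± 0.34. Without old replicate 1 the count was 4. The list had 2 of 29 higher at 6 h (median 0.07) and 4 of 28 after surgery (median 0.08). Of the inhibitory and checkpoint receptors, 3 of 15 were higher, among them Lag3, and 1 lower (median 0.27). Clec4a3, an inhibitory lectin receptor, had 15.4 to 26.7 CPM in old libraries, against 12.8, 9.51, 12.3 and 7.99 CPM in young ones, with no overlap (0.82 ± 0.20, edgeR adjusted p 0.161). TGF-beta signalling genes were positive in 13 of 13, with 2 higher at a nominal p below 0.05: Nrros, which presents TGF-beta on microglia (0.73 ± 0.23), and Smad3, a transducer of its receptor (0.66 ± 0.21). Of all genes tested, 5963 of 11985 were positive. The list's median was 0.21, against 0.06 at 6 h (11 of 13 positive) and 0.20 after surgery (8 of 13 positive). After surgery 2 members were higher and 1 lower at a nominal p below 0.05. Nrros was at -0.21 ± 0.19 at 6 h and 0.22 ± 0.22 after surgery, and Smad3 at 0.35 ± 0.22 and 0.49 ± 0.20.

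**Figure D4:**
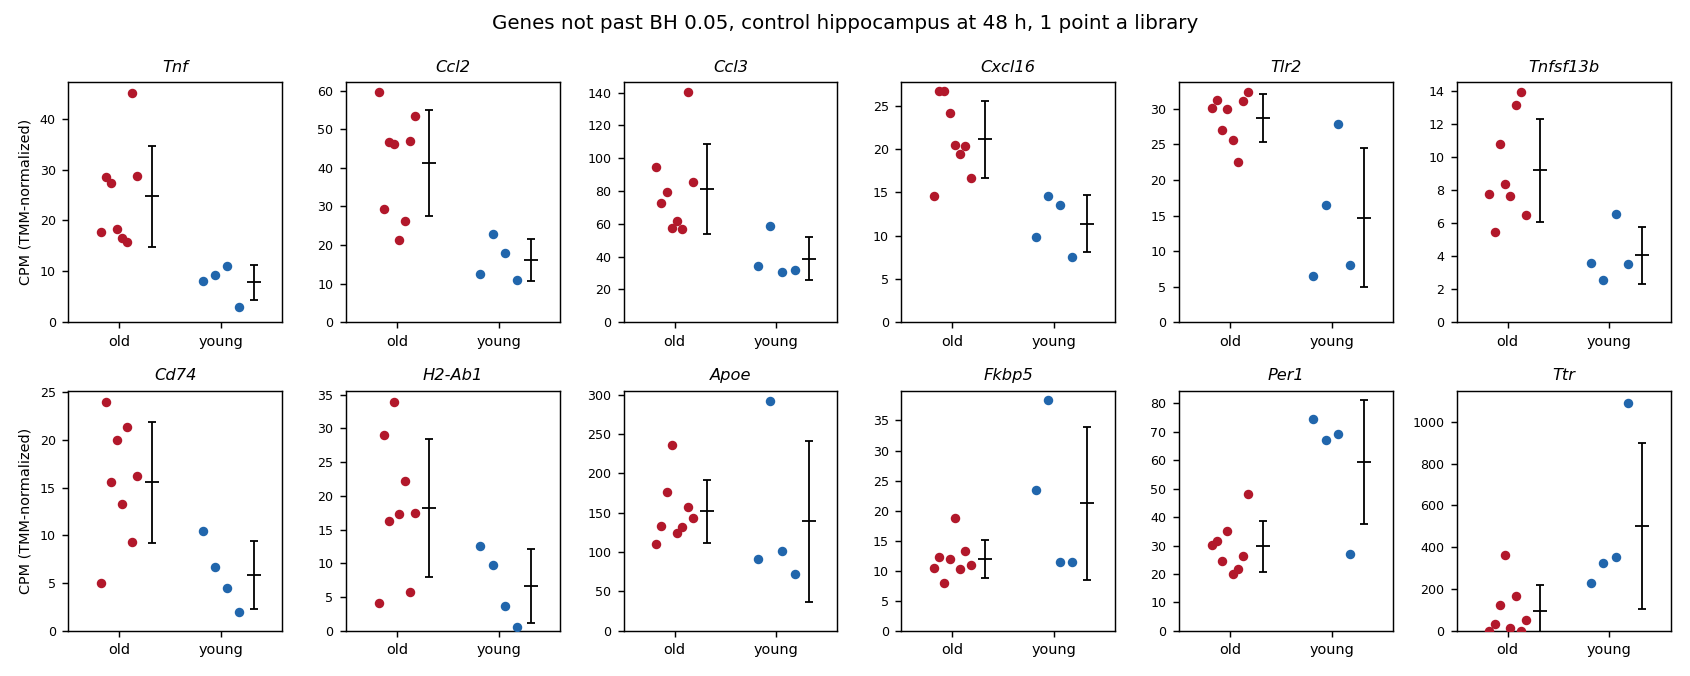
CPM (y axis, from 0) of 12 genes that missed the adjusted p of 0.05 in edgeR, with the 8 old libraries left of the 4 young ones and the mean ± SD beside them. Tnf is at 15.7 CPM or more in each old library and at 11.1 CPM or less in each young one, and Apoe overlaps through young replicate 2 at 292 CPM.

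The MHC class II list, which presents antigen to CD4+ T cells, was positive in 11 of 11 tested genes, with 4 higher at a nominal p below 0.05 (median 0.45). Cd74, the invariant chain, had 5.01, 24.02, 15.6, 19.99, 13.2, 21.3, 9.29 and 16.2 CPM in old libraries, against 10.4, 6.66, 4.51 and 1.997 CPM in young ones. Old replicates 1 and 7 lay in the young range, and the log2 fold change was 1.35 ± 0.45 (edgeR adjusted p 0.388). H2-Ab1, a class II chain, was at 1.39 ± 0.58, H2-Aa at 0.89 ± 0.56 and H2-Eb1 at 0.58 ± 0.57. Without young replicate 4, which was lowest for Cd74, H2-Aa and H2-Ab1, 1 member was left at a nominal p below 0.05. The list had 8 of 11 higher at 6 h (median 0.69) and 3 of 11 after surgery (median 0.43). Class I and peptide loading genes had 2 of 20 higher (median 0.17), against 8 of 20 at 6 h (median 0.52) and 8 of 20 after surgery (median 0.36). H2-D1 was at 0.60 ± 0.24 without overlap, 120 to 203 CPM in old libraries, against 112, 112, 111 and 57.4 CPM in young ones, and H2-K1 at 0.54 ± 0.29. The class I genes are close copies of one another, and how reads were divided among them is uncertain.

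Of 23 disease-associated genes tested in 48 h controls, 5 were higher at a nominal p below 0.05 and 0 lower (median 0.20), against 15 of 25 at 6 h (median 0.64, background 4.55%) and 12 of 23 after surgery (median 0.66, background 5.15%). The difference between these comparisons was not tested for the list. Cd52, a small surface glycoprotein, had 8.66 to 20.1 CPM in old libraries, against 5.06, 8.56, 4.51 and 5.99 CPM in young ones, with no overlap (1.02 ± 0.27, edgeR adjusted p 0.209). Clec7a, the beta-glucan receptor dectin-1, was at 1.25 ± 0.54, against 2.62 at 6 h and 2.57 after surgery. Cst7, the cystatin F gene, was at 0.15 ± 0.46, against 2.94 at 6 h and 2.39 after surgery. The age difference at 48 h minus that at 6 h was -2.83 ± 0.85 for Cst7 (edgeR adjusted p 0.572). It was -1.41 ± 0.87 for Clec7a (edgeR adjusted p 0.852), and neither was called. Axl, a receptor for apoptotic cells, was at 0.91 ± 0.74. Spp1 and Lgals3 were under the filter, Spp1 at 0.357 to 2.26 CPM in old and 0 to 3.87 CPM in young libraries, and Lgals3 at 0 to 4.08 CPM in old and 0 to 0.893 CPM in young ones.

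A single young library bears on these values. Apoe, the apolipoprotein E gene, had 110, 133, 177, 236, 124, 132, 157 and 143 CPM in old libraries, against 91.1, 292, 101.6 and 71.9 CPM in young ones. All 8 old libraries lay above the other 3 young libraries and below young replicate 2. The log2 fold change was 0.12 ± 0.30 with all libraries and 0.79 without that replicate, not called in either. It was 2.01 ± 0.44 at 6 h and 0.78 ± 0.31 after surgery. The age difference of Apoe at 48 h minus that at 6 h was -1.93 ± 0.59 and was not called (edgeR adjusted p 0.575). The same replicate was the highest of its group for Axl (5.71 CPM), Lyz2 (99.9), Cst7 (7.93), Ifitm3 (5.07), Ccl3 (58.4) and Fkbp5 (38.4). Without it, 7 of 25 disease-associated genes were higher at a nominal p below 0.05 (median 0.40), and 3 of 24 were without young replicate 1 or young replicate 4.

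Interferon-stimulated genes had 1 of 34 higher (Mx1, 0.97 ± 0.45) and a median of 0.10, against 12 of 39 at 6 h (median 0.45) and 11 of 34 after surgery (median 0.40). Ifitm3 was at 0.41 ± 0.55 and Ifi27l2a at 0.12 ± 0.56 in the 48 h controls, where both averaged a few CPM. The homeostatic list had 0 of 31 higher and 3 lower by that measure: Rhob, a small GTPase (-0.59 ± 0.24), Cst3, cystatin C (-0.42 ± 0.18), and Sparc, a matrix protein (-0.23 ± 0.11). Senescence and p53 genes had 3 of 15 higher (median 0.05), among them Cdkn1a, the p21 inhibitor of the cell cycle, at 0.64 ± 0.30. Ribosomal protein genes had 1 of 82 higher (median 0.06), against 28 of 82 at 6 h (median 0.35) and 28 of 82 after surgery (median 0.31). Vps29, a retromer subunit that sorts cargo out of endosomes, was among the smallest p of genes higher in old at 1.34 ± 0.32 (edgeR adjusted p 0.151) and stood at 0.26 at 6 h and -0.28 after surgery.

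A few lists ran the other way. Of 10 glucocorticoid-induced genes, 3 were lower and 0 higher at a nominal p below 0.05, 9 had a negative fold change, and the median was -0.22, against 0.01 at 6 h (0 and 0 of 12) and -0.19 after surgery (4 lower and 1 higher of 10, where 6.13% and 5.15% of all genes were). Fkbp5, a co-chaperone of the glucocorticoid receptor, had 7.95 to 18.9 CPM in old libraries, against 23.5, 38.4, 11.47 and 11.48 CPM in young ones. Young replicates 1 and 2 stood above all old libraries and the other 2 within them (-0.84 ± 0.30, edgeR adjusted p 0.452). Per1, a clock gene that glucocorticoids also induce, had 30.1, 31.7, 24.5, 35.1, 20.1, 21.6, 26.5 and 48.2 CPM in old libraries, against 74.4, 66.9, 69.2 and 27.0 CPM in young ones. Of the young libraries, replicate 4 was at the old level (-1.01 ± 0.30, edgeR adjusted p 0.285), and the fold change was 0.51 ± 0.33 at 6 h and 0.27 ± 0.30 after surgery. Ddit4, an inhibitor of mTORC1 signalling, had 0 to 0.906 CPM in old libraries, against 5.65, 7.93, 0.410 and 0.998 CPM in young ones (-3.41 ± 0.84, edgeR adjusted p 0.161). Nuclear genes of oxidative phosphorylation had 7 of 76 lower and 1 higher (median -0.23, 16 positive), against a median of 0.14 at 6 h and 0.02 after surgery. Ndufs8, a subunit of complex I, was at -0.67 ± 0.19 (edgeR adjusted p 0.213), with 8.43 to 14.8 CPM in old libraries, against 18.5, 28.5, 13.5 and 17.5 CPM in young ones. The number of lower members of that list was 1 without young replicate 2, 13 without young replicate 3 and 11 without old replicate 4. Over all genes, those with a nominal p below 0.05 in either direction were 851 of 12521, 1620 of 12612 and 906 of 11884 in these fits. The 13 mitochondrially encoded genes had 0 at a nominal p below 0.05 (median 0.04).

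**Figure D5:**
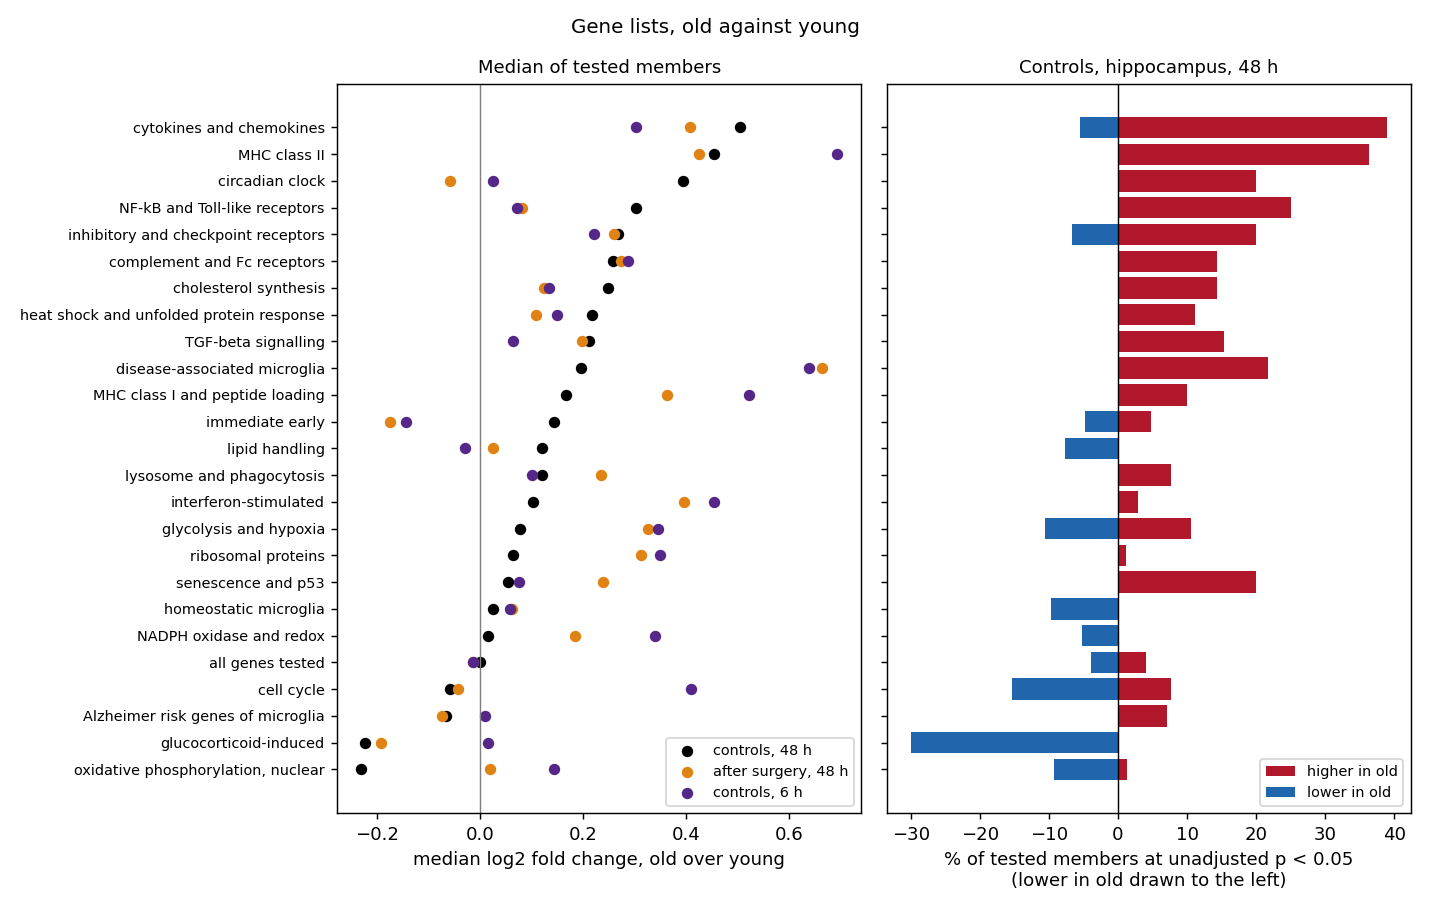
Left, the median log2 fold change of old over young of each gene list (x axis) in 48 h controls, 48 h after surgery and 6 h controls. Right, the percentage of tested members at a nominal p below 0.05 in 48 h controls, with higher in old to the right and lower to the left; cytokines and chemokines have a median of 0.51 and disease-associated genes 0.20, against 0.64 for disease-associated genes at 6 h.

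Of the choroid plexus and ependyma markers, 0 of 3 tested were called in 48 h controls. Ttr had 0.456, 34.4, 126, 365, 14.4, 169, 0 and 49.8 CPM in old libraries, against 231, 324, 355 and 1090 CPM in young ones (-2.39 ± 1.38, edgeR adjusted p 0.709). Young replicate 4, the highest for Ttr, was also the one high for Gclm, low for Per1 and H2-D1, and lowest in total counts. At 6 h the choroid list had 0 of 4 tested at a nominal p below 0.05 in either direction. The part of these markers in the results above was not tested.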

How the data were processed

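Microglial RNA was measured in 96 libraries, 12 of which are the control hippocampi at 48 h. Per the file headers, the authors deposited estimated counts per Ensembl gene in whole numbers, 1 column per library. Versions in the submitters' processing notes are DESeq2 1.36.0, R 4.2.1 and the build mm10. No aligner, counter or annotation release is named in the sources used here. Of 54532 identifiers, 54495 matched GENCODE M21 (GRCm38, the same assembly as mm10), used for symbols, positions and sequences, and 37 did not. Counts were used as deposited.

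Tests used edgeR 4.0.16 in R 4.3.3 (quasi-likelihood, robust, TMM, filterByExpr at a minimum count of 10), with a BH threshold of 0.05 over all genes tested. The 4 groups of a time were fitted together and old was contrasted with young; regions were compared with the animal as a block. Alternatives were DESeq2 1.42.0, limma 3.58.1 (voom), other scaling and filters, and fits without libraries. The tests were also run on counts simulated with planted changes, using the spread that edgeR estimated from these libraries. Single outlying libraries were not simulated, so that run does not show how the calls depend on them. At these depths a gene at 1 CPM has about 2 to 3 counts, and counting error alone is large.

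Genes named were the called ones whose mean log2 CPM was 3 or more, predicted and Rik symbols left out, called list members, the 5 of smallest p where fewer than 5 were called, and a constant list of 20. Named after their values were seen were the called genes outside that rule (Ankrd26, Dynlt1b, Rgs7bp, Gm27008, Gm42427, Gm42031), neighbours and copies, and single list members. The genes, lists and tests were chosen with earlier results of these data known.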

Additional observations from a re-analysis of the deposited data

Results flagged for a closer look

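Of 142 groups of values checked, each a gene or measure at 1 age, 21 held a library far from the others of its age. The nominal rate of this check is about 5%, for normally distributed values in separate groups. These groups share the same libraries, and some hold genes named after their values were seen. The count of 21 therefore cannot be set against that rate. Young control replicate 2 was the highest of the 4 young libraries for Apoe (292 CPM, next 101.6), Axl (5.71 CPM, next 1.64), Lyz2 (99.9 CPM, next 34.0) and Ccl3 (58.4 CPM, next 34.2). Young control replicate 4 was the highest for Gclm (119.8 CPM, next 7.14), Ttr (1090 CPM, next 355) and the sum of choroid plexus and ependyma markers (5378, next 1935). It was the lowest for H2-D1 (57.4 CPM, next 111), Per1 (27.0 CPM, next 66.9) and total counts (2278660, next 2848390).

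Of the old libraries, replicate 7 was highest for Ccl3 (140 CPM), Tnf (45.04 CPM) and Miga1 (13.6 CPM). Replicate 8 was highest for the interleukin genes Il1a (58.7 CPM) and Il1b (4.05 CPM). Replicate 4 was highest for Ttr (365 CPM) and the choroid plexus sum (1916), and replicate 6 for Lgals3 (4.08 CPM). Replicate 5 had the highest Vps29 (48.95 CPM) and the smallest share in the largest models (70.1%), and replicate 3 the highest share of Malat1 (0.629%). Outside that check, log2 levels of old replicate 5 correlated at 0.786 to 0.827 with the other old libraries. Those others correlated at 0.860 to 0.902 with each other, and the young libraries at 0.819 to 0.849. Old replicate 5 was also lowest of its age in the homeostatic sum (44293) and highest in the monocyte sum (321). Without it 10 genes were called.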

How the results depend on the processing

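The 10 calls at 48 h became 22 with DESeq2, 0 with control libraries only, 4 (1 higher, 3 lower) with the 4 old animals whose sort numbers lie among the young, and 7 to 23 without 1 library (23 without young replicate 3). RLE scaling, no low-count filter, voom and leaving out the largest models gave 7 to 10. The called genes kept their sign under each alternative that tested them. Shared replicate numbers do not pair old with young animals, since deviations of same-numbered libraries correlated at -0.0968, 0.00719, -0.174 and -0.100. With the replicate block, on replicates 1 to 4 of each age, edgeR called 0 genes, and 380 of 9619 tested had an unadjusted p below 0.05. That fit also called 0 at 6 h (696 of 10811 at an unadjusted p below 0.05) and after surgery (629 of 9747). The no-block fit of the region difference called 0. At 6 h, 8 calls became 60 with DESeq2, 19 with no filter, and 1 to 19 without 1 library (old replicates 1, 2, 3, 5, 6, 7 and young replicates 1 and 3 each moved it over 1.5 times); 0 were called without the 2 stepped young libraries, an alternative chosen after seeing the data. After surgery 10 became 40 with DESeq2 and 3 to 15 without 1 library (6 without old replicate 6 or 8, 3 without young replicate 2 and 4 without young replicate 3 were changes over 1.5 times). The difference between times had 10 calls with DESeq2, 1 with no filter and 0 to 5 without 1 library (5 without young 6 h replicate 3). The difference between regions had 7 with DESeq2 and 75 with no filter.

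Genes near 0 turned sign. Among the 4 old sorted with the young, Cx3cr1 was at -0.052 and Itgax at -0.083. Dynlt1f was at 0.013 with DESeq2, 0.30 with voom and 0.38 with the replicate block, which put P2ry12 at 0.063. Without 1 library, Apoe ran from -0.089 to 0.79, Cst7 from -0.12 to 0.99, Cx3cr1 from -0.0081 to 0.32, Dynlt1f from -0.37 to 0.21, Ifi27l2a from -0.084 to 0.77, Itgax from -0.12 to 0.55 and P2ry12 from -0.12 to 0.20. The cause was not tested. Low counts limit Rgs7bp, Gm27008 and the genes under the filter.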

Other observations

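Some groups not described above had few members at an unadjusted p below 0.05 in 48 h controls. Of 10 circadian clock genes 2 were higher in old, Clock (1.04 ± 0.28) and Nr1d2 (0.83 ± 0.38). These genes stood at -0.53 and 0.01 at 6 h. The clock list ran from -1.07 to 1.04 in 48 h controls, with 6 of 10 positive and a median of 0.39. Its median was 0.02 at 6 h and -0.06 at 48 h after surgery. In the surgery comparison 4 of 10 clock genes were positive, and by the same cutoff 0 rose with age and 1 fell. Of the Fc receptor genes, which bind antibody, Fcgr2b (0.67 ± 0.21) and Fcgr4 (1.25 ± 0.48) were higher, 2 of 14 in the complement and Fc receptor list (median 0.26), with medians of 0.29 at 6 h and 0.27 after surgery. Of 13 cell cycle genes Hmgb2 (-2.09 ± 0.68) and Top2a (-1.21 ± 0.51) were lower and Mcm5 (1.19 ± 0.57) higher. The list's median of -0.06 turned to 0.06 with the largest models left out and 0.09 with no filter. Of 13 lipid handling genes Plin3, a lipid droplet coat protein, was lower (-1.03 ± 0.32), against 0.06 at 6 h and 0.02 after surgery. None of these genes passed the adjusted p of 0.05 in edgeR.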
